A study of Mus musculus with 24 samples.

Results

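Serpinb6b and 4 further clade B serpins, Serpinb6a, Serpinb1a, Serpinb8 and Serpinb9, were followed through the livers of mice on 3 diets. The members were taken as every probe set whose platform annotation lists one of these symbols and no other, which gave 8 of the array's 45101 probe sets and 5 of 18194 genes. Serpinb6b and Serpinb6a are read by 1 probe set each, and Serpinb1a, Serpinb8 and Serpinb9 by 2 each. Serpinb6b was chosen on its measured values in both comparisons made here. Its levels and differences are therefore given as a description, with no test.

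Livers came from male C57BL6J mice, 6 per group, fed 45% fat with powder of Japanese yam propagules added at 5% (HF+P), 45% fat alone (HF), or a low-fat diet (LF). All groups had been acclimated on the low-fat diet, ate their experimental diet for 4 weeks and were fasted for 16 h before dissection. Each mouse gave 1 Affymetrix 3' array, so the number of arrays limits the precision. The p-values measure the spread between these mice in the processed values, and for some members that spread differed between processings. HF against LF addresses high-fat feeding and HF+P against HF addresses the added propagules. The authors processed the HF arrays 2 times, in one run beside LF and in another beside HF+P, so the HF mice are shared by both comparisons and levels of LF and HF+P are not on the same scale.

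Clade B serpins are protease inhibitors that lack a classical secretion signal and act mainly inside cells. A serpin presents a reactive loop as bait, and a protease that cuts the loop is trapped in a covalent complex. In the mouse the family has expanded, so that several mouse genes stand for a single human SERPINB1, SERPINB6 or SERPINB9. In RefSeq (GRCm38.p6) 16 genes with clade B symbols lie on chromosome 13 and 12 on chromosome 1. Serpinb1a, Serpinb6b, Serpinb9 and Serpinb6a are on chromosome 13 and Serpinb8 is on chromosome 1.

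Values are array summaries on a log2 scale that barely differ between arrays. The SD over 12 columns had a median of 4.17e-06 in the value set of LF and HF and 4.27e-06 in that of HF and HF+P, so a difference is not a fold change. Sizes are therefore given as standardized differences, group means subtracted and divided by the SD pooled over both groups, with 95% intervals. Column medians lay higher in HF than in LF by 3.36e-05, and 90.6% of genes differed by less; in HF+P against HF the medians differed by -1.27e-06. As a check of the tissue, all 10 measured hepatocyte markers lay above the column median in both value sets. In a fit of all genes with limma, 332 genes passed in HF against LF, or 1.82% of 18194. Of these 124 were higher (0.682%) and 208 lower (1.14%), a split that became 131 and 3214 after quantile normalization and 231 and 15858 after median centring. In HF+P against HF 1 gene was called (0.00550%). It is Serpinb6b, which was chosen on these values, so nothing is read from that call. Over named probe sets the shares called were 0.930% and 0.00286%. An unadjusted p below 0.05 (limma) was found for 2765 of 18194 genes in HF against LF and for 1304 in HF+P against HF. Such counts given for gene lists below are to be read beside these.

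Serpinb6b, a mouse paralogue of human SERPINB6, lay lower in HF livers than in LF livers. Its deposited values were 6.88592, 6.88600, 6.88610, 6.88597, 6.88611 and 6.88615 in HF mice, against 6.88658, 6.88660, 6.88622, 6.88634, 6.88663 and 6.88657 in LF mice (mice 1, 2, 3, 4, 5 and 8 of each group). All 6 HF mice lay below all 6 LF mice, and LF mice 3 and 4 were the closest to the HF group. The means were 6.88604 ± 9.11e-05 in HF and 6.88649 ± 0.00017 in LF (SD, n = 6 each), a difference of -0.00045 or -3.05 pooled SDs. In this comparison 2.22% of genes had groups that did not overlap, 0.918% with HF higher and 1.30% with HF lower.

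Serpinb6b lay higher in HF+P livers than in HF livers. The values were 6.97537, 6.97536, 6.97529, 6.97535, 6.97534 and 6.97544 in HF+P mice 1, 2, 3, 4, 7 and 8, against 6.97473, 6.97480, 6.97490, 6.97476, 6.97492 and 6.97498 in HF mice 1, 2, 3, 4, 5 and 8. No HF+P mouse was as low as any HF mouse, and the gap between the groups was wider than the range of either. The means were 6.97536 ± 4.70e-05 in HF+P and 6.97485 ± 0.000101 in HF (SD, n = 6 each), a difference of 0.000509 or 5.96 pooled SDs. Groups that did not overlap were found for 0.374% of genes here, 0.192% with HF+P higher. The 6 HF mice kept the same order in both processings, and the groups stayed apart after quantile normalization and after median centring. Because Serpinb6b was chosen on these values, groups that stay apart are no sign of stability.

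**Figure D1:**
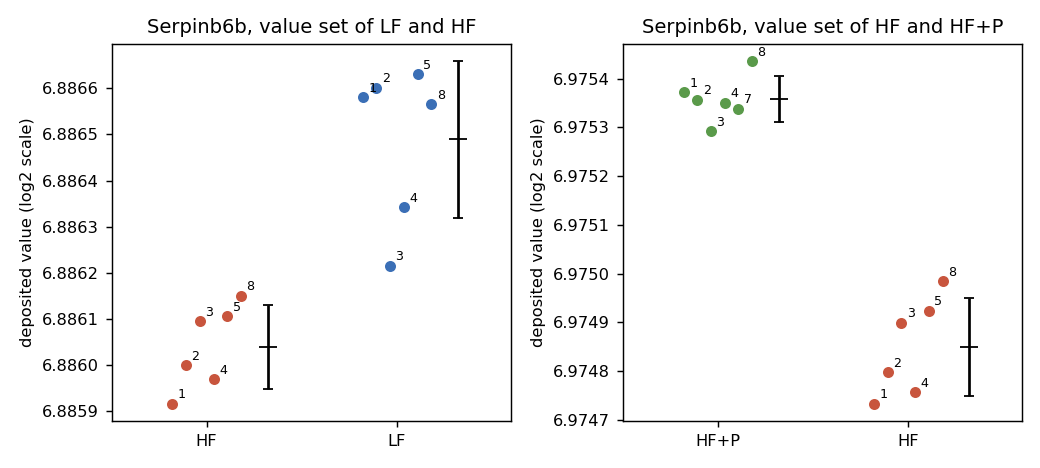
Deposited values of Serpinb6b, handled as log2, for each mouse (points, numbered by mouse; bars, mean ± SD, n = 6), with HF beside LF in the left panel and HF+P beside HF in the right panel. The HF mice lie below every LF mouse and below every HF+P mouse, and the panels have separate vertical scales.

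The pooled SD of Serpinb6b was larger than that of 95.97% of named probe sets in the value set of LF and HF and of 95.03% in that of HF and HF+P. Its rank among all probe sets spanned 19 places over the 12 LF and HF arrays and 12 places over the HF and HF+P arrays, against medians of 3 and 2.

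Serpinb6a, a paralogue of Serpinb6b, is the gene of the intracellular inhibitor also known as SPI3, whose human counterpart SERPINB6 inhibits cathepsin G. It did not pass in either comparison. Values were 8.521954, 8.521961, 8.521976, 8.521966, 8.521969 and 8.521961 in HF mice, against 8.521959, 8.521968, 8.521977, 8.521963, 8.521965 and 8.521966 in LF mice. The groups overlapped almost entirely, with mouse 3 the highest of each. The standardized difference was -0.235 (95% interval -1.28 to 0.820; limma, Benjamini-Hochberg adjusted p = 0.887), and the difference of -1.78e-06 is below the size by which column medians shifted. In HF+P against HF the values ran from 8.728162 to 8.728193 in HF+P and from 8.728164 to 8.728189 in HF, with a standardized difference of -0.316 (-1.36 to 0.745; limma adjusted p = 0.927). The sign of that value depended on the scaling, with 0.481 after quantile normalization. Single mice moved it too: it was -0.993 without HF+P mouse 8 (limma adjusted p = 0.676) and -0.0686 without HF mouse 3 (limma adjusted p = 0.999).

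RefSeq start regions were available for 4 of the 5 members, 250 bases before to 50 after each annotated start on GRCm38.p6. Those of Serpinb6b, of Serpinb6a at its upstream start and of Serpinb9, 3 genes of one cluster, are shown 5′ to 3′ on the strand of the gene. Capitals mark matches to 7 motifs searched on both strands. They are at chr13:32965011-32965310 on the + strand, chr13:34002745-34003044 on the - strand and chr13:33004291-33004590 on the + strand.
Serpinb6b: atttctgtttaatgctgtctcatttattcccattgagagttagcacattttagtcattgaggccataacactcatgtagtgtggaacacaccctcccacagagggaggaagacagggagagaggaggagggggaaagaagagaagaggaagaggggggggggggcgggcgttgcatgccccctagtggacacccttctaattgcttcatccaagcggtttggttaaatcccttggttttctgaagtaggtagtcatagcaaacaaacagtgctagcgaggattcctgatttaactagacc
Serpinb6a: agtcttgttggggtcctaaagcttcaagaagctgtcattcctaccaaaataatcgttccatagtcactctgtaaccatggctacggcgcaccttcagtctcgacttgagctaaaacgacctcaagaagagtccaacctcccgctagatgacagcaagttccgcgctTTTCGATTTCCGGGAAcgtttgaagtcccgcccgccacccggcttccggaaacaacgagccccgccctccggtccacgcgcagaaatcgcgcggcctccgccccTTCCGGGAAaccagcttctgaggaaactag
Serpinb9: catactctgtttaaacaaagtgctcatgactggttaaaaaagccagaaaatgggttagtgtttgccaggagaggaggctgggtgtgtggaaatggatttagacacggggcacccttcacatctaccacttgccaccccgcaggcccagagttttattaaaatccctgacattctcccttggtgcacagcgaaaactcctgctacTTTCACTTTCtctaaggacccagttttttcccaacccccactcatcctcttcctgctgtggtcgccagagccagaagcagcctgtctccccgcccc
No motif was matched in the Serpinb6b window. The Serpinb9 window holds the core of an interferon-stimulated response element on its opposite strand, and the Serpinb6a window holds that core too, also on the opposite strand, overlapped by 1 of 2 matches to TTCNNNGAA, the interferon-gamma activated site. Among 32851 windows of this length, 3.44% hold the first and 8.30% the second. The Serpinb8 window holds 2 matches to the AP-1 site TGANTCA, found in 7.81% of windows. Serpinb6a has a second annotated start, whose window at chr13:33936034-33936333 on the - strand holds 1 match to the antioxidant element TGACNNNGC (12.4% of windows) and 1 to CCAAT (37.4%). The other motifs searched, with no match in the 5 windows, were TATAAA (13.6%) and the direct repeat bound by PPAR receptors (0.0396%). A match is a string of letters, and the arrays do not read these regions.

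Serpinb1a encodes the mouse counterpart of human SERPINB1, the leukocyte elastase inhibitor of neutrophils and monocytes, which is also known as a factor released by liver that promotes beta cell proliferation. On chromosome 13 it is the measured gene next to Serpinb6b. It passed in neither comparison, and its 2 probe sets had the same sign in each. Values of the probe set with the higher level were 7.11042, 7.11046, 7.10994, 7.11001, 7.11012 and 7.11018 in HF mice, against 7.11017, 7.11066, 7.11014, 7.11046, 7.11073 and 7.11058 in LF mice. Only HF mice 3, 4 and 5 lay below all LF mice, and HF mice 1, 2 and 8 lay among the LF group. The means were 7.11019 ± 0.000211 in HF and 7.11046 ± 0.00025 in LF (SD, n = 6 each). The standardized difference was -1.08 (-2.20 to 0.0868; limma adjusted p = 0.358), and it was -1.05 (-2.17 to 0.109; limma adjusted p over probe sets = 0.401) for the other probe set.

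In the livers of HF+P mice Serpinb1a had values of 7.18832, 7.18997, 7.19009, 7.19181, 7.19238 and 7.18952, against 7.18948, 7.18942, 7.18760, 7.18787, 7.18824 and 7.18840 in HF mice. Of the HF+P mice 5 lay above every HF mouse and mouse 1 lay within the HF range. The means were 7.19035 ± 0.0015 in HF+P and 7.18850 ± 0.000786 in HF (SD, n = 6 each). The standardized difference was 1.42 (0.185 to 2.61; limma adjusted p = 0.6252), and for the other probe set, in which 4 HF+P mice lay above every HF mouse, it was 1.62 (0.336 to 2.85; limma adjusted p over probe sets = 0.550). Both intervals lie above 0, while neither value passed the adjustment over all features. The 2 probe sets share a source accession, so they are not separate support. In the same comparison the intervals of Serpinb5 (-2.61 to -0.185) and Serpinb6c (-2.59 to -0.172) lay below 0, and neither gene passed. With mouse number as a block, the Serpinb1a value of the probe set with the higher level was 0.810 (limma adjusted p = 0.652).

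**Figure D2:**
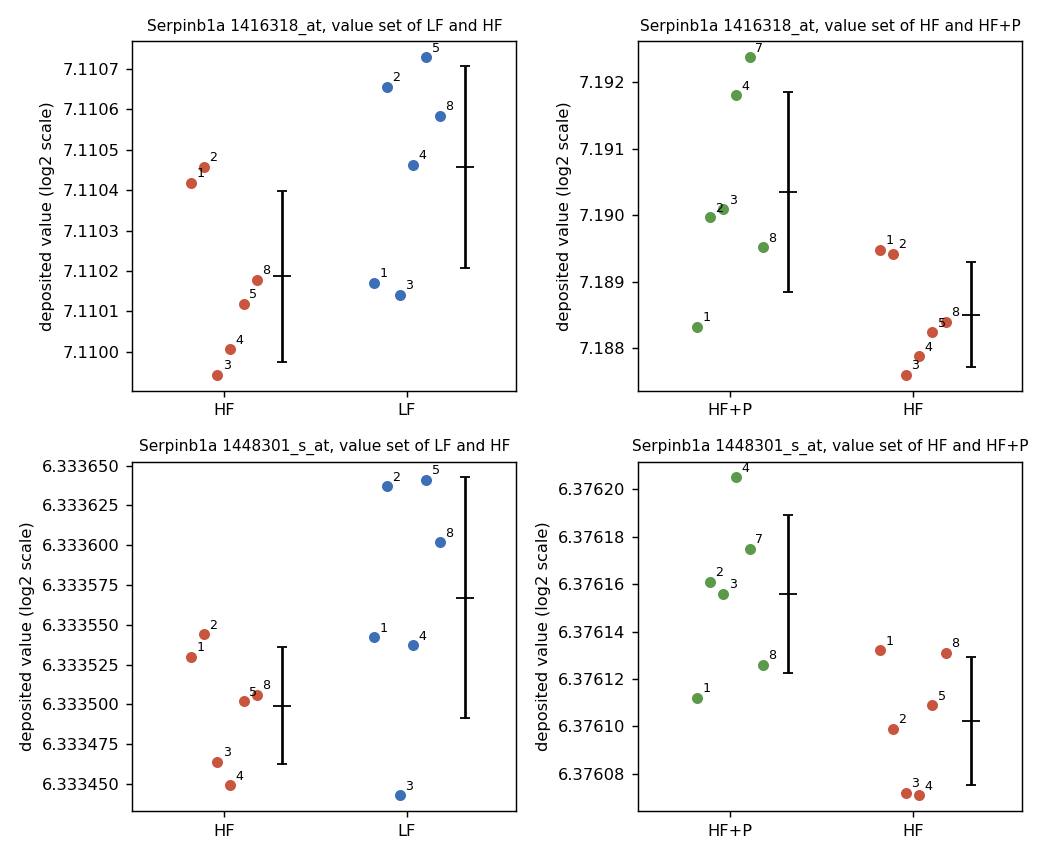
Deposited values of both Serpinb1a probe sets, handled as log2, for each mouse (points, numbered by mouse; bars, mean ± SD, n = 6), with HF beside LF on the left and HF+P beside HF on the right. The groups overlap in all 4 panels, and vertical scales are separate.

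Within groups the mice with more Serpinb1a were not shown to be those with more Serpinb6b. Over 6 HF+P mice Pearson's r was -0.354 and Spearman's rho -0.771 (exact permutation p = 0.512 and 0.103; 0.512 and 0.137 adjusted over 8 relations). Over 6 HF mice r was -0.475 and rho -0.200 (exact permutation p = 0.339 and 0.714; adjusted 0.392 and 0.714), and over 6 LF mice r was 0.615 and rho 0.829 (exact permutation p = 0.165 and 0.0583; adjusted 0.282 and 0.117). Without the 2 mice farthest from the Serpinb1a median r was -0.374 in HF+P, 0.564 in HF and 0.941 in LF, so the HF value changed sign.

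Both Serpinb1a probe sets share a source accession. Between them r was 0.883 in HF+P, 0.941 in HF and 0.900 in LF (exact permutation p = 0.0278, 0.0181 and 0.00972; adjusted 0.0741, 0.0722 and 0.0722). Their rho was 0.886 in HF+P and 0.943 in both HF and LF (exact permutation p = 0.0333, 0.0167 and 0.0167; adjusted 0.0889, 0.0667 and 0.0667), and r without 2 mice was 0.911, 0.873 and 0.967. None of the 8 relations passed after adjustment. In the HF mice processed with HF+P, r between the genes was -0.458 and rho -0.314 (adjusted exact permutation p = 0.392 and 0.644), and r between the probe sets was 0.642 and rho 0.771 (adjusted 0.282 and 0.137), with r of 0.564 and 0.936 without 2 mice.

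Serpinb9, also known as SPI6, inhibits granzyme B and protects cytotoxic lymphocytes and dendritic cells from their own granule contents. Group means hardly differed, and a single mouse stood out. Values were 8.21164, 8.21153, 8.21218, 8.21158, 8.21148 and 8.21137 in HF mice, against 8.21172, 8.21158, 8.21161, 8.21156, 8.21169 and 8.21161 in LF mice. HF mouse 3 was the highest of the 12, while 3 HF mice lay below every LF mouse. The standardized difference was 0.0139 (-1.03 to 1.06; limma adjusted p = 0.995) with all mice and -1.17 without HF mouse 3 (limma adjusted p = 0.362). After quantile normalization it was -3.43 (limma adjusted p = 0.00283), on ranks that spanned 6 places.

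Against the HF mice, Serpinb9 in HF+P livers showed the same HF mouse at the top. Values were 8.12805, 8.12798, 8.12823, 8.12816, 8.12830 and 8.12827 in HF+P mice, against 8.12818, 8.12807, 8.12870, 8.12812, 8.12803 and 8.12794 in HF mice. The groups overlapped throughout, and HF mouse 3 again lay above all others. The standardized difference was -0.0334 (-1.08 to 1.01; limma adjusted p = 0.997), and 0.800 without HF mouse 3 (limma adjusted p = 0.863). The second Serpinb9 probe set gave -0.417 (-1.47 to 0.653) in HF against LF and 0.289 (-0.770 to 1.33) in HF+P against HF, and HF mouse 3 was the highest HF mouse in it as well.

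HF mouse 3 also stood apart in immune gene lists. A list score averages, over the genes of a list, how many pooled SDs a mouse lies above or below the HF mean. For 17 measured interferon response genes, a list chosen after the data were seen, HF mouse 3 scored 2.19, against -1.09 to -0.0147 in the other HF mice and -1.58 to -0.199 in LF mice. In the value set of HF and HF+P it scored 2.15 on that list, against -1.28 to 0.265 in HF+P mice and -1.12 to -0.0135 in the other HF mice. Of the 17 genes 16 were higher in HF than in LF. Their median standardized difference was 1.10, or 1.15 without HF mouse 3, against 0.0114 over all genes. Groups did not overlap for 2 of the 17 genes, against 2.22% of all genes. In HF+P against HF 16 of the 17 were lower in HF+P, with a median of -0.525 and 0 called (limma; 0 with an unadjusted p below 0.05), and without HF mouse 3 the count was 11 and the median -0.157. This mouse also led the HF group in 14 lymphocyte and NK cell markers, with 1.59, and in 12 macrophage markers, with 1.78. On the macrophage markers LF mouse 3 scored 0.933, and their highest summed level was 109.262 in LF against 109.226 in HF. The summed level of the interferon list ran from 136.769 to 137.287 in HF and from 136.647 to 136.792 in LF. No member of these 3 lists passed in HF against LF (limma, 0 called; 7, 0 and 1 with an unadjusted p below 0.05). The scale has no zero level, so markers cannot be called absent. The part of these genes in the Serpinb9 values was not tested.

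**Figure D3:**
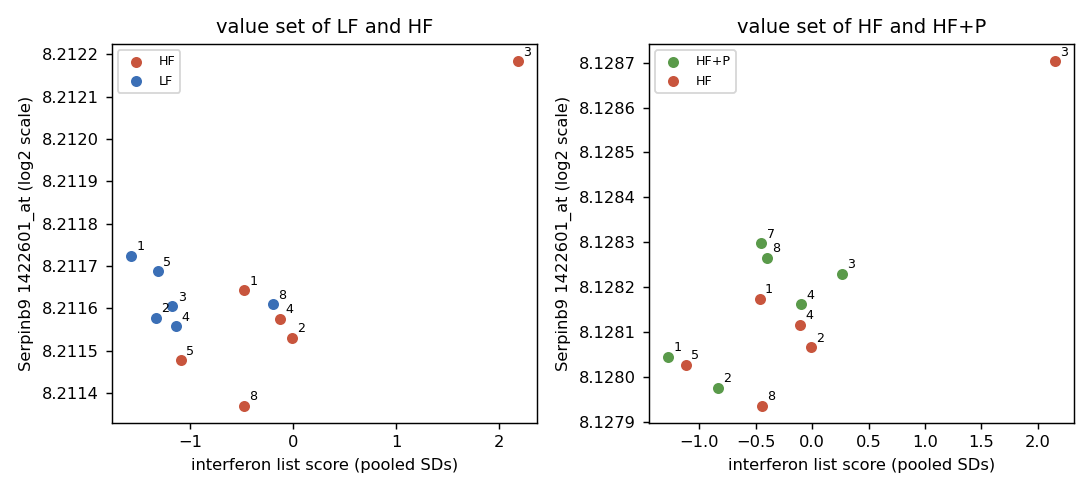
Serpinb9 (vertical axis, deposited value of 1 probe set, handled as log2) against the score of 17 interferon response genes (horizontal axis, pooled SDs) for each mouse, numbered and coloured by group, in the value set of LF and HF (left) and of HF and HF+P (right). HF mouse 3 lies apart from the other 11 mice on both axes in both panels.

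Serpinb8 is named for its human counterpart, which inhibits the proprotein convertase furin. Values were 6.914013, 6.914050, 6.914050, 6.914018, 6.914017 and 6.914014 in HF mice, against 6.914002, 6.914044, 6.913994, 6.914041, 6.914003 and 6.913990 in LF mice. The groups overlapped, with HF mice 2 and 3 above all LF mice. The standardized difference was 0.635 (-0.460 to 1.70; limma adjusted p = 0.618), but -0.871 after quantile normalization and -0.664 after median centring, so its sign depends on the scaling. Serpinb8 ran from 7.259949 to 7.259954 in HF+P mice, against 7.259949 to 7.259957 in HF mice, so the groups overlapped. The standardized difference there was -0.123 (-1.17 to 0.926; limma adjusted p = 0.982), with signs that turned in the same way (0.212 and 0.264). The second Serpinb8 probe set gave 0.181 (-0.871 to 1.22) in HF against LF and -0.348 (-1.39 to 0.716) in HF+P against HF.

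**Figure D4:**
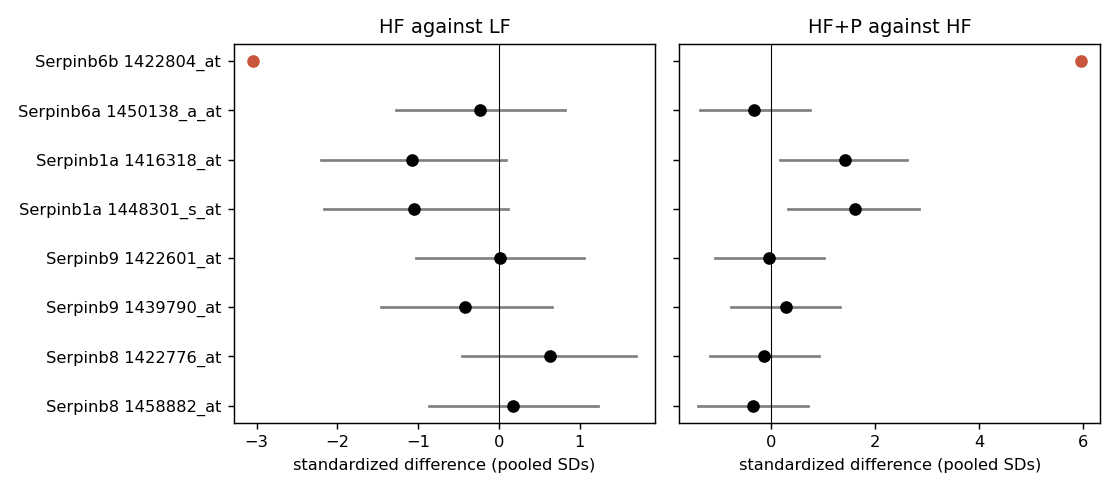
Standardized differences (horizontal axis, pooled SDs) of the 8 probe sets of the members, HF against LF on the left and HF+P against HF on the right; points are estimates and lines 95% intervals, with none drawn for Serpinb6b, which was chosen for these values. Serpinb6b stands at -3.05 and 5.96, while the other probe sets lie between -1.08 and 0.635 on the left and between -0.348 and 1.62 on the right.

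Across the family, 18 of 27 listed clade B serpins were measured by a probe set annotated with their symbol alone. Such an annotation does not show that a probe set reads no paralogue. In HF against LF 0 passed higher and 1 lower (limma), Serpinb6b, against 0.682% and 1.14% of all genes. The median standardized difference was 0.0457 against 0.0114 over all genes. For HF+P against HF 1 passed higher and 0 lower (limma), again Serpinb6b, the only gene called of all genes (0.00550%). The median was -0.138 against 0.0217 over all genes. The choice of Serpinb6b fixes these counts of genes that passed, and nothing is read from them. The 13 clade B serpins outside the members had standardized differences between -0.759 and 0.798 in HF against LF and between -1.42 and 0.617 in HF+P against HF, and 0 of them passed (limma, lowest adjusted p = 0.526 and 0.6253). Their deposited differences were at most 3.75e-06 and 8.86e-06 in size. In HF against LF they are below the shift of column medians, 3.36e-05, so their signs there depend on how that shift is treated. After median centring 16 of the 18 family members were called lower in HF, as were 87.2% of all genes, so that count says nothing particular to the family. In HF+P against HF the medians differed by only -1.27e-06. There Serpinb6c, with the largest of these differences, had -1.41 as deposited, -1.39 after median centring and 0.763 after quantile normalization. Serpinb3a turned from -0.0506 to 0.441 after median centring. Without HF mouse 3 the family medians were -0.0756 in HF against LF and -0.0651 in HF+P against HF. The 5 with the highest levels were Serpinb9b (0.0776 in HF against LF, -0.479 in HF+P against HF), Serpinb6e (-0.166 and 0.617), Serpinb5, also called maspin (0.332 and -1.42), Serpinb3a (-0.449 and -0.0506) and Serpinb11 (-0.759 and -0.154).

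The measured genes that flank the cluster on chromosome 13 were followed as well, 10 on each side in RefSeq order. Of these 20, in HF against LF, Tubb2a, a beta-tubulin, fell by 3.05 pooled SDs (-4.70 to -1.34; limma adjusted p = 0.0179) and Slc22a23, a member of the organic ion transporter family, rose by 2.59 (1.03 to 4.09; limma adjusted p = 0.0377). Of the 20, 1 passed higher and 1 lower, against 0.682% and 1.14% of all genes, and whether that differs was not tested. The median of the 20 was 0.0200. Between Serpinb6b and Tubb2a lie 12 measured genes, 0 of which passed (limma; the nearest, Serpinb9, had an adjusted p of 0.995). In HF+P against HF 0 of the 20 passed (limma), Tubb2a had a value of 0.463 and Slc22a23 of -0.466, and the median was -0.240. Wrnip1, a DNA repair ATPase and the measured gene that borders Serpinb1a on the far side from Serpinb6b, had values of -0.557 and 1.05 in the 2 comparisons and did not pass.

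**Figure D5:**
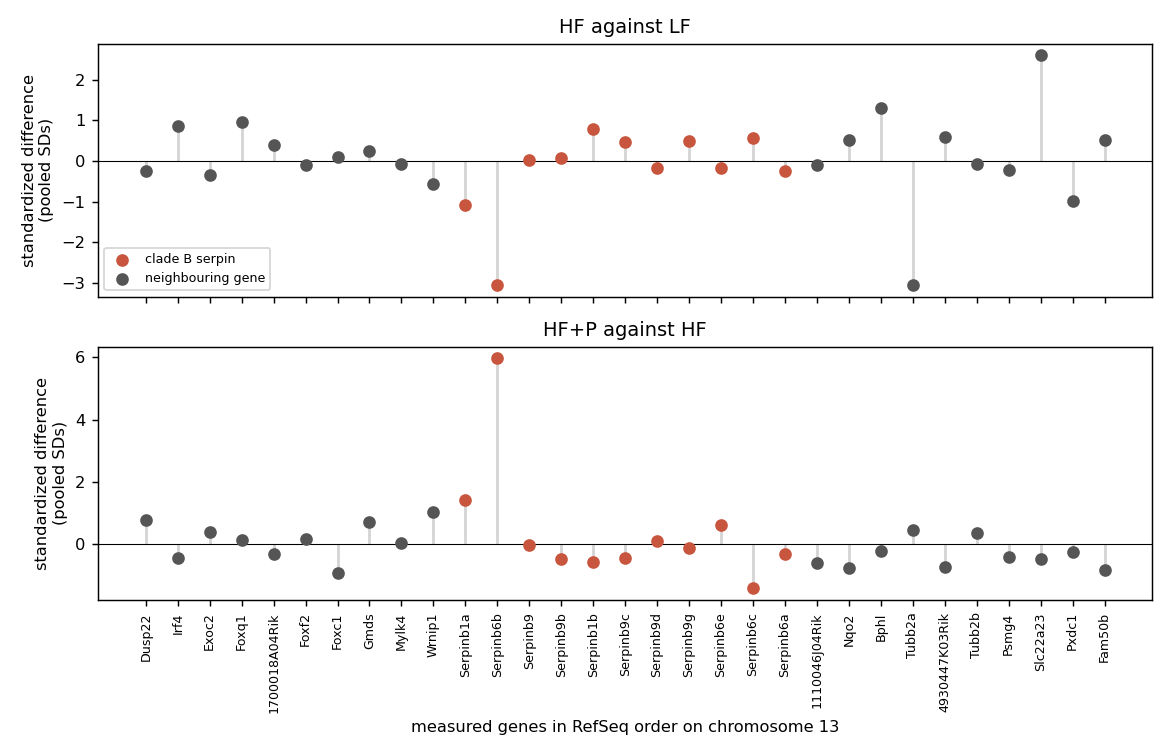
Standardized differences (vertical axis, pooled SDs) of 31 measured genes in their RefSeq order on chromosome 13 (horizontal axis, not to distance), for HF against LF (top) and HF+P against HF (bottom); clade B serpins are in red and flanking genes in grey. Serpinb6b stands at -3.05 and 5.96, beside Serpinb1a at -1.08 and 1.42 and Serpinb9 near 0.

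Genes most like Serpinb6b over the arrays were ranked by the lower of 2 Pearson correlations, over the 12 columns of each value set, among 18193 genes. They were Guk1, a guanylate kinase (0.872 over LF and HF arrays, 0.827 over HF and HF+P arrays), Prxl2b, a peroxiredoxin-like protein (0.824 and 0.832), Las1l, a factor of ribosome assembly (0.799 and 0.802), Chmp1b, an ESCRT-III subunit (0.793 and 0.929), and Acad8, isobutyryl-CoA dehydrogenase of valine breakdown (0.787 and 0.854). The HF arrays are in both value sets, and the group difference is part of each correlation. Serpinb1a ranked 299th (0.581 and 0.553), Serpinb9 7111th, Serpinb6a 7483rd and Serpinb8 12522nd. As a description, the deposited differences of Guk1, Las1l, Chmp1b and Acad8 in HF against LF are below the size by which column medians shifted, while that of Prxl2b, -0.00104, is above it.

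Among 20 proteases on which clade B serpins act, 0 passed in either comparison (limma). Beside 2765 and 1304 of all 18194 genes, 3 and 0 of the proteases had an unadjusted p below 0.05 (limma). The medians were 0.477 in HF against LF and -0.361 in HF+P against HF, and 0.298 and -0.0805 without HF mouse 3. Furin had the lowest value in HF against LF, -2.12 (-3.47 to -0.698; limma adjusted p = 0.0731), or -1.275 after quantile normalization and -2.36 after median centring. Each HF mouse lay below the lowest LF mouse for Furin, and groups did not overlap for 2.22% of all genes. The Furin difference of -8.76e-06 is below the size by which column medians shifted, 3.36e-05. Thrombin's gene F2 had the highest value, 1.67 (0.370 to 2.91; limma adjusted p = 0.641), which turned to -2.02 after median centring. The HF+P against HF values ran from Gzmk, a granzyme, at -1.27 (-2.43 to -0.0679; limma adjusted p = 0.716) to Elane, neutrophil elastase, at 1.06 (-0.0982 to 2.18; limma adjusted p = 0.719), with signs that depended on the scaling. Of 20 measured serpins of other clades 0 passed in either comparison (limma; 4 and 2 with an unadjusted p below 0.05), with medians of 0.621 and -0.300, or 0.615 and -0.133 without HF mouse 3. Serpina10, which inhibits coagulation factor Xa, had the highest value in HF against LF, 2.24 (0.788 to 3.64; limma adjusted p = 0.0589; 0.533 after quantile normalization), and the lowest in HF+P against HF, -1.78 (-3.05 to -0.455; limma adjusted p = 0.512), and Serpina3a stood at the other end with -0.717 and 0.787.

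Markers of cell types that could carry these serpins are given beside the Serpinb6b values. In HF+P against HF, 12 of 12 macrophage markers, 8 of 10 neutrophil markers and 11 of 14 lymphocyte and NK cell markers were lower in HF+P, with medians of -0.669, -0.229 and -0.394 and 0 called (limma; 0, 0 and 2 with an unadjusted p below 0.05). Their summed levels ran from 108.964 to 108.989, from 68.55808 to 68.55818 and from 96.679 to 96.682 in HF+P, against 108.971 to 109.022, 68.55813 to 68.55826 and 96.680 to 96.687 in HF. Without HF mouse 3 the counts lower in HF+P were 11 of 12, 6 of 10 and 8 of 14, and the medians -0.414, -0.101 and -0.0915. Mast cell markers had a median of -0.140, bile duct markers 0.204, stellate cell markers 0.0922, endothelial markers 0.00305, hepatocyte markers 0.107 and pancreatic acinar markers -0.104. In HF against LF the macrophage, neutrophil and lymphocyte medians were 0.647, 0.302 and 0.706, or 0.393, 0.0781 and 0.488 without HF mouse 3. The medians of mast cell, bile duct, stellate, endothelial, hepatocyte and acinar markers there were 0.0200, -0.350, 0.321, -0.650, -0.227 and 0.00504, with the shift of column medians not removed. Of these lists 1 gene passed, against 1.82% of all genes. It was Tek, the angiopoietin receptor of endothelium, which fell by 2.53 pooled SDs (-4.02 to -0.992; limma adjusted p = 0.0402). The Tek difference of -2.72e-05 is below the size by which column medians shifted, 3.36e-05. The 8 endothelial markers ran from -2.53 to 1.97, with 2 higher and 6 lower in HF. In bulk liver, fewer cells of a type and less RNA per cell cannot be told apart, and the part of cell makeup in the Serpinb6b values was not tested.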

How the data were processed

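Liver RNA of 18 mice was measured on Affymetrix 3' arrays, 1 per mouse; total RNA was extracted with Trizol, per the labels' protocols. The authors deposited 24 columns of values, handled here as log2 from their range (5.36 to 15.0); the HF arrays appear in both value sets of 12 columns, per the series' design text. R 2.7.2 was used, per the submitters' processing notes; for the log base, summarisation and normalization the entry is: not given in the sources used here.

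Of 45101 probe sets, 34958 carry a single symbol in the platform annotation, 932 several and 9211 none; 34754 matched RefSeq. Each of 18194 genes was represented by its probe set with the highest mean. Each value set was fitted alone in limma 3.58.1 (R 4.3.3; lmFit, eBayes, two-sided, Benjamini-Hochberg over all genes, threshold 0.05), after testing on simulated data. Other probe sets of members were adjusted over all single-symbol probe sets. Standardized differences carry the Hedges correction. Prior degrees of freedom were 0.654 and 0.696, a light weight on the shared prior, which still counts for genes of very small SD, where limma's p and the interval of the standardized difference, built on the gene's own SD, can differ.

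The members and lists were chosen with earlier results of these data known. Named genes were all members, the 5 other clade B serpins with the highest levels, the extremes or called genes of each list, called neighbours of the cluster, and the 5 genes most like Serpinb6b; Wrnip1 was named after its values were seen. The interferon list, and list medians without HF mouse 3, were added after seeing the data. Alternatives were quantile normalization, median centring, all probe sets, means over probe sets, leaving out dim genes, trend and robust settings, array weights, a threshold of 0.1, blocking on mouse number and omission of each mouse in turn. Labels give mouse numbers and no pairing.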

Additional observations from a re-analysis of the deposited data

Results flagged for a closer look

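Over 32 sets of 6 values, 8 probe sets in 4 groups, 5 had a highest sample whose gap to the next exceeded Dixon's 95% limit for the range; chance gives about 1 in 20, and the HF mice are counted in both value sets. Serpinb9 was highest in HF mouse 3, at 8.212184 in the value set of LF and HF, where the next HF mouse had 8.211643, and at 8.128703 in that of HF and HF+P, where the next had 8.128175. The second Serpinb8 probe set was highest in HF mouse 2, at 6.644769 (next 6.644707) and 6.513712 (next 6.513614). Serpinb6a was highest in HF+P mouse 8, at 8.728193, against 8.728172 in the next HF+P mouse. No Serpinb6b or Serpinb1a value was singled out in this way.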

How the results depend on the processing

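Serpinb6b kept its direction in every setting that gave it a value, and leaving out dim genes removed it. The gene was chosen on these values, so its direction and sizes across settings are no sign of stability. Its standardized difference in HF+P against HF was 4.48 after quantile normalization, and leaving out 1 mouse gave 5.58 to 7.33, against -4.49 to -2.82 in HF against LF. Genes called in HF+P against HF went to 0 after quantile normalization, without dim genes and with the mouse number as a block (limma; 751, 746 and 1621 with an unadjusted p below 0.05), and were 1 to 2 without 1 mouse, 2 without HF mouse 2 or HF+P mouse 8. Clade B serpins called there went to 0 in the same 3 settings (limma; 2, 0 and 1 with an unadjusted p below 0.05) and were 1 without any 1 mouse; that call is Serpinb6b, chosen on these values, and is no sign of stability. In HF against LF the genes called were 3345 after quantile normalization, 16089 after median centring, 502 without dim genes, 679 at an adjusted p below 0.1, and 131 to 357 without 1 mouse, falling by over 1.5 times without any 1 of LF mice 1, 3, 5 and 8 or HF mice 1, 2, 3, 4 and 8. Clade B serpins called were 2, 16 and 0 in the first 3 of these, 0 with the block (limma; 1 with an unadjusted p below 0.05) and 0 to 1 without 1 mouse, the 0 arising without HF mouse 4. Serpinb9 had the opposite sign after quantile normalization (-3.43). Median centring called Serpinb6a (-1.92) and Serpinb1a (-1.19) lower in HF; it subtracts column medians that differ by more than most genes do. For the other moves the cause was not tested. The block gave Serpinb6b values of -2.74 in HF against LF and 5.83 over the 5 shared mouse numbers of HF+P and HF. Same-numbered mice share only a number: their correlations ran from -0.132 to 0.137 and from 0.0456 to 0.201, and 4 of 6 and 3 of 5 numbers correlated best with their own, a hint from the data and not from the design. Signal over background is unknown for these summaries.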

Other observations

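The same 6 HF arrays had different spreads in the 2 processings. In the Serpinb1a probe set with the higher level, the SD over HF mice was 0.000786 when processed with HF+P. It was 0.000211 when processed with LF, a ratio of 3.72. The Serpinb8 probe set with the higher level had 3.41e-06 and 1.80e-05, a ratio of 0.190. The second probe sets went the other way, with ratios of 0.74 for Serpinb1a and 1.56 for Serpinb8. Serpinb6b (ratio 1.11), Serpinb6a (1.12) and the Serpinb9 probe set with the higher level (0.9502) kept their spread, and in these 3 all HF mice kept their places in the order. For the Serpinb1a probe set with the higher level 4 of 6 mice kept their places, and for that of Serpinb8 2 of 6. In the second probe sets 2 of 6 did so for Serpinb1a and 4 of 6 for Serpinb8.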
